A study of Mus musculus with 12 samples.

Results

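This account concerns 10 genes of the activin and TGF-beta family in mouse pancreas with caerulein pancreatitis, out of 46095 genes in the count table. Inhba was selected on its measured fall in AMKO, that is on the CPM of these 12 libraries, and the other 9 because they belong to its family: Inhbb, Tgfb1, Tgfb2, Tgfb3, Gdf15, Fst, Fstl3, Acvr1b and Smad7. All 10 passed the filter on low counts. Bulk RNA sequencing compared 6 samples of whole pancreas from wild type mice of strain C57BL/6J (WT 1 to 6) with 6 from Axl-/-Mertk-/- mice (AMKO 1 to 6), at postnatal day 56. No label ties a sample to a mouse. The receptor tyrosine kinases AXL and MERTK take part in the clearance of dying cells. Both genotypes were given caerulein, a cholecystokinin analogue that overstimulates acinar cells, in 10 intraperitoneal doses of 100 µg/kg spaced 1 h apart, and pancreas was taken 12 h after the first dose. For the AMKO mice, strain background and exact alleles are not named by the sources used here. Background and receptor loss therefore cannot be told apart. No untreated pancreas was analysed here.

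Library totals lay between 10668637 and 15184371 counts. Axl, targeted along with Mertk, had 545 to 1086 counts in the wild type libraries and 66 to 187 in the AMKO libraries. The Mertk level was 6.90 ± 2.96 CPM (wild type) against 6.75 ± 2.39 CPM (AMKO; SD, n = 6 each), where CPM are counts scaled to library size, and whole-gene counts do not show which of its exons were read. Alb, the liver gene for albumin, split the wild type group. It had 2 to 7 counts in WT 1 to 3 and 141 to 309 counts in WT 4 to 6 and the AMKO libraries, so comparisons were repeated against each set of 3. By Xist and Ddx3y counts, WT 2, 4 and 5 and AMKO 1, 3 and 6 were female and the rest male. Acinar marker genes were abundant in both groups, as the pancreas label says, at 173481 to 264419 CPM summed in wild type and 157718 to 297041 CPM in AMKO.

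Ligands of this family are secreted as dimers that bring together type I and type II serine/threonine kinase receptors. Activins, made of the inhibin beta subunits encoded by Inhba and Inhbb, and the TGF-beta ligands then activate SMAD2 and SMAD3, which enter the nucleus with SMAD4. Follistatin (Fst) and follistatin-like 3 (Fstl3) bind and block activins outside the cell, and SMAD7 shuts the receptors down inside it. In the pancreas the family is known for its part in stellate cell activation, fibrosis and acinar plasticity after injury.

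The 250 bases before the RefSeq start site were read for Inhba, Inhbb and Fstl3 on GRCm38.p6. They are shown because the pair of activin subunit genes had the lowest and the highest fitted difference among the 10, and Fstl3 because it encodes an activin antagonist. Each is printed 5′ to 3′ on the strand of its gene, and capitals mark a match to the short SMAD element CAGAC on either strand (GTCTG on the other strand). The 4 motifs below were searched on both strands: CAGAC, the palindrome GTCTAGAC, the AP-1 site TGANTCA and the cyclic AMP response element TGACGTCA. The strings differ, so a match to GTCTAGAC is not in itself a match to CAGAC.
Inhba (chr13:16011601-16011850, plus strand): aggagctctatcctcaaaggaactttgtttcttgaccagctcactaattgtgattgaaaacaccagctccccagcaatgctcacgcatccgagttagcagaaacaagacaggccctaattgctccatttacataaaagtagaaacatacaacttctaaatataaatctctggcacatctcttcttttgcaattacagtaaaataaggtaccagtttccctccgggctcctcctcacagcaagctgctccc
Inhbb (chr1:119422249-119422498, minus strand): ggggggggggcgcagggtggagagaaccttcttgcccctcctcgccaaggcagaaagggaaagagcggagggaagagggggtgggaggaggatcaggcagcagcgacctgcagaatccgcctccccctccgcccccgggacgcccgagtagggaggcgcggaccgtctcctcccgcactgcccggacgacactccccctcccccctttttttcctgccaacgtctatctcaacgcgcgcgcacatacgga
Fstl3 (chr10:79777024-79777273, plus strand): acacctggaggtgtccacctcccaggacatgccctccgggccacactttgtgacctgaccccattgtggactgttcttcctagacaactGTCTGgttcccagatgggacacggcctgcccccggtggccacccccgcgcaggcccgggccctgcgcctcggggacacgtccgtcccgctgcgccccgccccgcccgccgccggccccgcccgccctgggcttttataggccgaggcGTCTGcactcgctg
The Inhba window held none of the 4 motifs and had 43.2% G and C, below the median of 52.4% over 32851 RefSeq promoter windows of this length. The Inhbb window held none either and had 68.0% G and C. The Fstl3 window, at 71.2%, held GTCTG beginning 161 and 14 bases before the start. Over all windows, CAGAC occurred in 42.2%, TGANTCA in 6.75%, TGACGTCA in 1.55% and GTCTAGAC in 0.167%. A window with these letters is not thereby a bound site, and their lack says nothing of a factor. Windows were found for 7 of the 10 genes.

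Inhba, on chromosome 13 (16011851 to 16031621, GRCm38), encodes the beta A subunit of activin A. Its level in wild type ran from 4.94 CPM in WT 4 through a median of 5.60 to 10.2 CPM in WT 1. In AMKO it ran from 0.636 CPM in AMKO 2 through a median of 1.44 to 2.28 CPM in AMKO 1. All 6 AMKO libraries lay below all 6 wild type libraries, a lack of overlap in either direction that 3.54% of the genes tested showed. The means were 6.61 ± 2.09 CPM and 1.46 ± 0.693 CPM (SD, n = 6 each), a log2 fold change of -2.15 (SE 0.31). Since this contrast chose the gene, these values are a description and carry no test. The counts behind them were 8 at the lowest and 165 at the highest. Leaving out each library in turn gave log2 fold changes of -2.32 to -1.98, and these with 14 other alternatives ran from -2.32 to -1.89. In females the levels were 4.94 to 5.32 CPM in wild type and 0.935 to 2.28 CPM in AMKO, and in males 5.87 to 10.2 CPM and 0.636 to 2.04 CPM. In bulk tissue, fewer cells of a type and less RNA per cell cannot be told apart. All 9 tested duct markers were also fitted lower in AMKO, with a summed level of 2147 to 2806 CPM in wild type and 1644 to 2370 CPM in AMKO. Their part in the Inhba difference was not tested. Fibroblast and stellate cell markers had a median of -0.36 over 11 tested. A leukocyte score was the mean of neutrophil, macrophage, dendritic and B cell markers. With this leukocyte marker score as a term, the log2 fold change of Inhba was -2.19, again a description. No term for duct or fibroblast markers was fitted, and the part of any cell type was not tested.

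**Figure D1:**
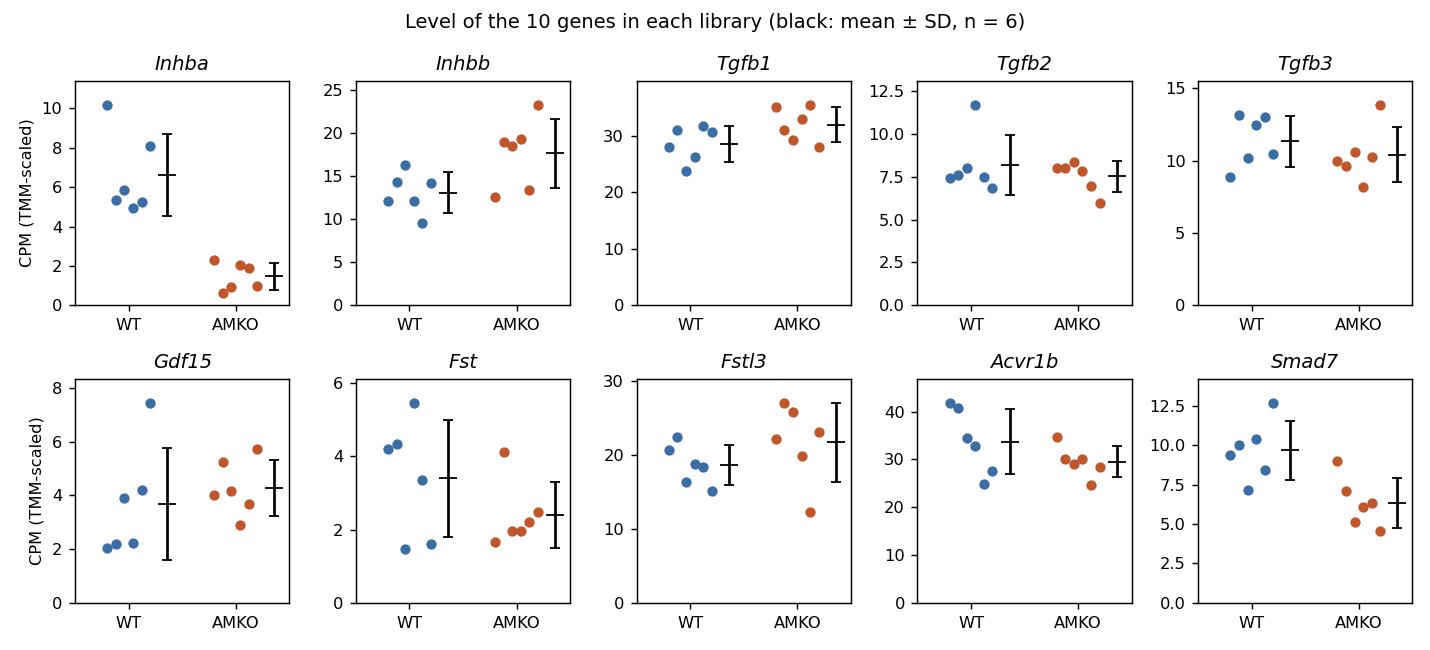
Level of the 10 genes in CPM (vertical axes from 0) in each library of wild type (blue) and AMKO (orange); black bars are the mean ± SD of 6 libraries. Inhba is the panel in which the groups stand apart, with AMKO libraries at 0.636 to 2.28 CPM and wild type libraries at 4.94 to 10.2 CPM.

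Inhbb, on chromosome 1 (119415465 to 119422248), encodes the beta B subunit found in activin B and activin AB. It lay in the other direction from Inhba, without passing the test. Wild type libraries ran from 9.53 CPM in WT 5 through 13.2 to 16.3 CPM in WT 3, and AMKO libraries from 12.6 CPM in AMKO 1 through 18.7 to 23.3 CPM in AMKO 6. In all, 4 AMKO libraries lay above every wild type library, and the other 2 lay within the wild type range. The log2 fold change was 0.43 (SE 0.16, edgeR quasi-likelihood adjusted p = 0.135), a fold of 1.35 with a 95% interval of 1.06 to 1.71. Limma voom with quality weights called it (adjusted p = 0.0381), as did the fit with the leukocyte score (0.0232), whereas DESeq2 did not (0.0887).

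Inhba and Inhbb were also set against each other within each library, per length of their exons. Inhba made up 19.3% to 35.9% of the sum of the pair in wild type, with a mean of 25.2% ± 6.31, and 2.18% to 10.8% in AMKO, with a mean of 5.70% ± 3.54 (SD, n = 6 each). Activin beta subunit RNA was thus mostly Inhbb in every library, by count per exon length. This share contains the Inhba values that chose the gene and was not tested.

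The 3 TGF-beta ligand genes did not pass the test. Tgfb1, the most abundant of them, ran from 23.7 CPM in WT 3 through 29.4 to 31.8 CPM in WT 5 in wild type, and from 28.0 CPM in AMKO 6 through 32.1 to 35.5 CPM in AMKO 5. In all, 3 AMKO libraries lay above the wild type range and the other 3 within it. Its log2 fold change was 0.16 (SE 0.09, adjusted p = 0.318), with a fold interval of 0.978 to 1.28. Tgfb2, on chromosome 1 (186622792 to 186705989), was at 8.16 ± 1.76 CPM and 7.52 ± 0.897 CPM, with WT 4 at 11.7 CPM above the rest of its group (log2 fold change -0.12, SE 0.15, adjusted p = 0.688, fold interval 0.743 to 1.15). Without WT 4 the log2 fold change of Tgfb2 was 0.01. Tgfb3, on chromosome 12 (86056745 to 86079041), was at 11.4 ± 1.76 CPM and 10.4 ± 1.89 CPM (-0.13, SE 0.14, adjusted p = 0.642, fold interval 0.746 to 1.13); its AMKO range enclosed the wild type range.

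The makeup of TGF-beta ligand RNA was compared per exon length, a test chosen after the values were seen. Tgfb1 formed 54.4% ± 4.27 of the sum of the 3 genes in wild type and 59.1% ± 4.41 in AMKO (two-sided exact permutation p = 0.0823 over 924 splits, adjusted p = 0.173 over 4 such tests). Tgfb3 formed 32.0% ± 2.66 and 28.7% ± 5.20 (exact permutation p = 0.208, adjusted 0.277), and Tgfb2 13.6% ± 2.84 and 12.1% ± 1.66 (exact permutation p = 0.331, adjusted 0.331). None of the 3 shares differed beyond the spread between libraries.

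Tgfb1 lies close to Axl, which was targeted along with Mertk. It occupies 25687002 to 25705077 on chromosome 7, 52.2 kb from Axl at 25757273 to 25788705, with the coding genes Ccdc97 and Hnrnpul1 between them. Of 28 tested genes within 1 Mb of Axl, edgeR called 0, DESeq2 1 and voom 4, and 7 had an unadjusted p under 0.05. Over all genes tested the shares were 5.78%, 9.47%, 12.1% and 21.9%. Genes around Mertk were not examined here.

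**Figure D2:**
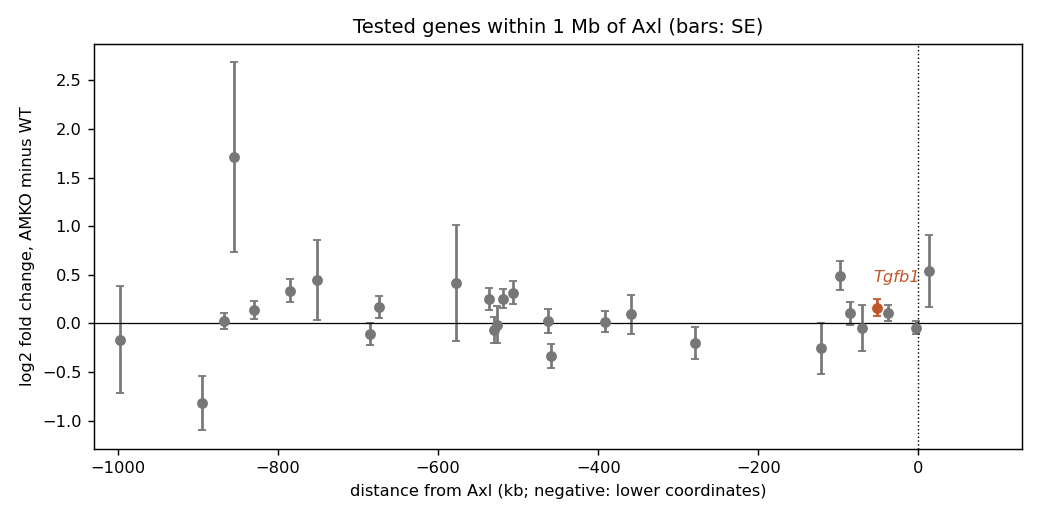
Log2 fold change (AMKO minus WT, vertical axis, bars are the standard error) of the 28 tested genes within 1 Mb of Axl against their distance from it in kb (horizontal axis, negative towards lower coordinates). Tgfb1 (orange), at 52.2 kb, has a log2 fold change of 0.16.

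Gdf15 encodes a stress-induced secreted member of the family, on chromosome 8 (70629393 to 70632456). Its level ran from 2.03 CPM in WT 1 through 3.08 to 7.44 CPM in WT 6, and from 2.89 CPM in AMKO 4 through 4.09 to 5.73 CPM in AMKO 6. The wild type range enclosed the AMKO range. Its log2 fold change was 0.22 (SE 0.31, adjusted p = 0.727, fold interval 0.734 to 1.84). The value depended on which wild type libraries were used, 0.66 against WT 1 to 3 and -0.11 against WT 4 to 6. Without WT 6 alone it was 0.56.

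Neither activin antagonist gene passed the test. Fst, on chromosome 13 (114452290 to 114458951), averaged 3.40 ± 1.60 CPM in wild type, from 1.47 CPM in WT 3 to 5.46 CPM in WT 4. Its AMKO mean was 2.40 ± 0.893 CPM, from 1.67 CPM in AMKO 1 to 4.13 CPM in AMKO 2 (difference of -0.51 on the log2 scale, SE 0.34, adjusted p = 0.401). Its fold interval of 0.428 to 1.16 is the widest towards lower values among the 9, and its counts were as low as 18. Without WT 4 the log2 fold change of Fst was -0.32. Fstl3, on chromosome 10 (79777272 to 79782630), was at 18.6 ± 2.69 CPM and 21.7 ± 5.32 CPM, with AMKO 5 below the wild type range and 3 AMKO libraries above it (0.22, SE 0.16, adjusted p = 0.466, fold interval 0.912 to 1.49). Without AMKO 5 its log2 fold change was 0.36 (adjusted p = 0.0681), and without WT 3, WT 6, AMKO 3 and AMKO 6 it was 0.016. Of its exon length, 47.3% overlaps Prss57 on the other strand, whose own counts were 0 to 3. Fstl3 formed 91.5% ± 3.22 of the sum of both antagonists per exon length in wild type and 94.3% ± 1.99 in AMKO (exact permutation p = 0.0866, adjusted 0.173).

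Acvr1b, on chromosome 15 (101174067 to 101213684), encodes a type I receptor through which activins signal. Wild type libraries ran from 24.9 CPM in WT 5 through 33.6 to 41.9 CPM in WT 1, and AMKO libraries from 24.7 CPM in AMKO 5 through 29.6 to 34.7 CPM in AMKO 1. In the wild type sets used because of Alb, levels were 34.4 to 41.9 CPM in WT 1 to 3 and 24.9 to 32.9 CPM in WT 4 to 6. The share of all genes that separate these sets was not computed, and sets of 3 can separate by chance. The log2 fold change was -0.19 (SE 0.13, adjusted p = 0.400, fold interval 0.723 to 1.06), -0.40 against WT 1 to 3 and 0.07 against WT 4 to 6.

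Smad7, which encodes an inhibitory SMAD that is itself induced by the pathway, came closest to the threshold. Wild type libraries ran from 7.17 CPM in WT 3 through 9.69 to 12.7 CPM in WT 6, and AMKO libraries from 4.54 CPM in AMKO 6 through 6.21 to 9.01 CPM in AMKO 1. In all, 5 of 6 AMKO libraries lay below every wild type library, and AMKO 1 lay within their range. The log2 fold change was -0.60 (SE 0.18, adjusted p = 0.0615), a fold of 0.660 with a 95% interval of 0.507 to 0.858. The call turned on single libraries. Without WT 3 the adjusted p was 0.0466 and without AMKO 1 it was 0.0206, whereas over the fits leaving out 1 library it ran up to 0.138. DESeq2 gave 0.0287, voom 0.0190 and the fit with the leukocyte score 0.0200.

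Of the 9 genes other than Inhba, edgeR called 0, beside 5.78% of the 13743 genes tested across the table (2.41% higher and 3.37% lower in AMKO). At an unadjusted p under 0.05 there were 2, Inhbb and Smad7. DESeq2 called 1, and voom and the fit with the leukocyte score called 2 each. Over all genes, 21.9% had an unadjusted p under 0.05, DESeq2 called 9.47%, voom 12.1% and the leukocyte score fit 11.1%. Counts of 1 or 2 among 9 genes are too few to set apart from these shares. Leaving out WT 3 or AMKO 1 gave 1 call, Smad7. Of the 9, 5 were fitted below 0 (median -0.12 on the log2 scale, against -0.00 for all genes tested).

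**Figure D3:**
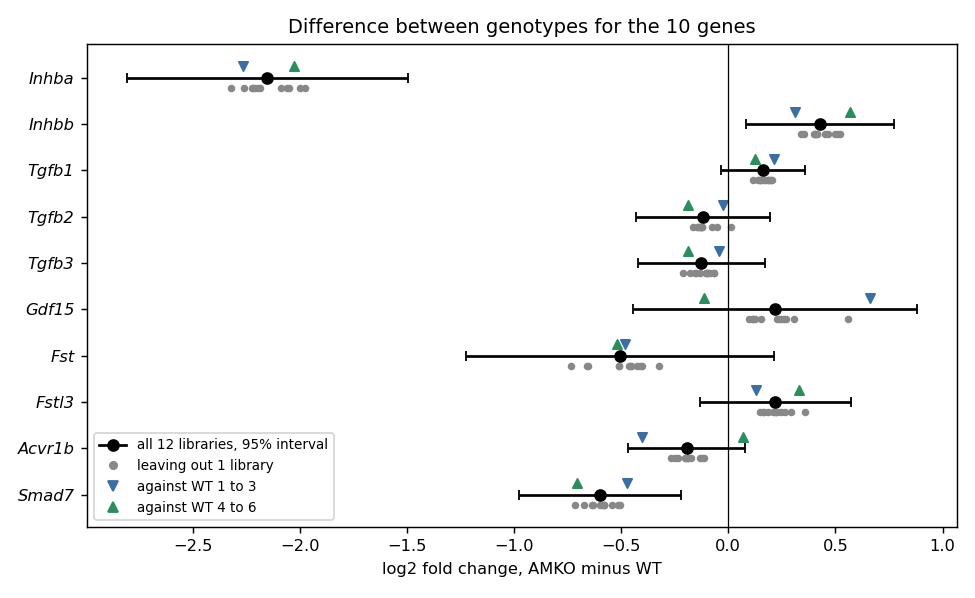
Log2 fold change (AMKO minus WT, horizontal axis) of the 10 genes with its 95% interval (black), after leaving out each library in turn (grey) and against each wild type set of 3 (triangles). Inhba stays between -2.32 and -1.98 when 1 library is left out, and Gdf15 and Acvr1b change side with the wild type set. Inhba was chosen for its fall in this contrast, so its interval is a description and carries no test.

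Levels can be compared between genes only per length, here as CPM per kb of exon. In wild type the order was Acvr1b (7.63), Fstl3 (7.62), Tgfb1 (5.68), Tgfb3 (3.36), Inhbb (3.07), Smad7 (2.14), Gdf15 (1.98), Tgfb2 (1.41), Inhba (1.03) and Fst (0.741 CPM per kb). Between neighbours in this order the library ranges overlapped, apart from Tgfb1 (4.71 to 6.30) and Tgfb3 (2.62 to 3.88 CPM per kb). In AMKO, Fstl3 (8.89) led before Acvr1b (6.68), Tgfb1 (6.35), Inhbb (4.15), Tgfb3 (3.08), Gdf15 (2.31), Smad7 (1.41), Tgfb2 (1.30), Fst (0.523) and Inhba (0.229 CPM per kb). Inhba was the lowest of the 10 there, at 0.0995 to 0.357, just below Fst at 0.363 to 0.900 CPM per kb. The antagonist Fstl3 thus stood above both activin subunit genes in both genotypes by mean level per length.

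The rest of the pathway was described with 9 lists, chosen with earlier results of these data known. They hold 124 genes, none of them among the 10. Of these, 93 were tested, and 18 were called, which is 19.4% against the 5.78% of all genes. Given how the lists were chosen, this comparison is a description and carries no test. Of the 18, 15 fell and 3 rose in AMKO. Over the 93, 67 were fitted below 0 (median -0.14 on the log2 scale), and of all genes 50.3% were. At an unadjusted p under 0.05 there were 31, beside 21.9% of all genes. DESeq2 called 21, beside 9.47%, and voom 23, beside 12.1%. The count depended on the libraries, as did the share of all genes called. The count ran from 6, without AMKO 2, to 19, without AMKO 1, where 3.02% and 8.11% of all genes were called. It was 10 without WT 2 (3.78% of all genes), 9 without WT 4 (3.64%) and 8 without AMKO 3 (2.95%). Against WT 4 to 6 it was 3, where 1.17% of all genes were called, and against WT 1 to 3 it was 6, where 1.62% were. None of the 18 changed direction in any alternative.

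**Figure D4:**
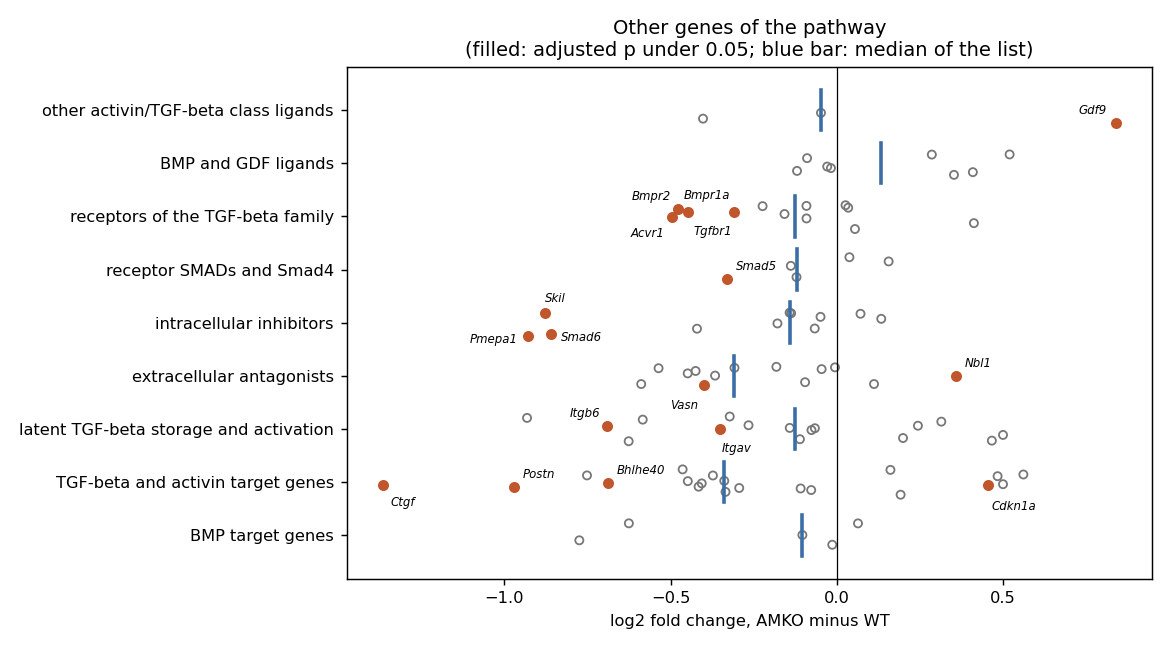
Log2 fold change (AMKO minus WT, horizontal axis) of 92 tested genes in the 9 pathway lists (rows); filled and named points passed the test and blue bars are the medians of the whole lists. Filled points lie mostly left of 0, with 14 lower and 3 higher in AMKO among those drawn. The lists were chosen with earlier results of these data known.

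Among intracellular inhibitors, 3 of 11 tested genes fell, 9 were fitted below 0, and the median was -0.14. Over all genes tested, 5.78% were called (3.37% lower in AMKO) and 50.3% were fitted below 0. Skil encodes SnoN, a co-repressor of SMADs that the pathway itself induces. It ran from 59.7 through 70.6 to 92.2 CPM in wild type and from 30.5 through 41.5 to 45.4 CPM in AMKO, with no overlap. Its log2 fold change was -0.88 (SE 0.12, adjusted p = 0.00145), and it was called in every alternative tried. Pmepa1 encodes a membrane protein that is induced by TGF-beta and restrains it. Wild type libraries averaged 29.0 ± 4.53 CPM and AMKO libraries 15.3 ± 2.97 CPM, again with no overlap (-0.93, SE 0.14, adjusted p = 0.00247). Lack of overlap was shown by 3.54% of all genes tested, and genes were named here by smallest p in the same contrast. Smad6, the inhibitory SMAD of the BMP branch, fell from 3.01 ± 0.359 to 1.65 ± 0.496 CPM (-0.86, SE 0.22, adjusted p = 0.0318). When single libraries were left out, Smad6 missed the threshold in 7 of 12 fits.

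Of the TGF-beta and activin target genes, 4 of 21 tested fell and 1 rose, 15 were fitted below 0, and the median was -0.34. These counts stand beside 5.78% of all genes called and 50.3% fitted below 0. Ctgf encodes connective tissue growth factor. It ran from 17.0 through 21.1 to 51.7 CPM in wild type and from 7.79 through 9.67 to 12.8 CPM in AMKO (-1.36, SE 0.24, adjusted p = 0.00599). All AMKO libraries lay below all wild type ones, and 3.54% of all genes tested lacked overlap in either direction. Of the Ctgf exon length, 23.2% overlaps Gm15270 on the other strand. Bhlhe40, a transcriptional repressor, fell by 0.69 on the log2 scale (SE 0.13, adjusted p = 0.00800). Postn, which encodes the matrix protein periostin, fell by 0.97 (SE 0.27, adjusted p = 0.0460), and missed the threshold in 9 of 12 such fits. Cdkn1a, the gene of the cell cycle inhibitor p21, which the pathway and p53 induce, rose from 189 ± 23.5 to 259 ± 40.6 CPM (0.45, SE 0.11, adjusted p = 0.0309, lost in 7 of 12). Col1a1, Col1a2 and Col3a1 stand both in this list and among fibroblast markers. Of 11 tested fibroblast and stellate cell markers 1 passed (Pdgfrb, -0.62, adjusted p = 0.0330), beside 5.78% of all genes. These markers had a median of -0.36 and a summed level of 820 to 1379 CPM in wild type and 637 to 1289 CPM in AMKO. Their part in these differences was not tested.

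Of 12 tested receptor genes, 4 fell and none rose, with 8 fitted below 0 and a median of -0.12. Over all genes tested the shares were 5.78% called (3.37% lower) and 50.3% fitted below 0. Acvr1, a type I receptor for activins and BMPs, ran from 23.0 through 26.7 to 30.4 CPM in wild type and from 17.3 through 18.6 to 21.6 CPM in AMKO, without overlap (-0.50, SE 0.09, adjusted p = 0.00851). Bmpr2, the type II BMP receptor, was lower by a similar amount (-0.48, SE 0.09, adjusted p = 0.00932). Acvr1 and Bmpr2 passed in all 12 fits without 1 library. Neither passed against WT 4 to 6, where 1.17% of all genes were called, or without WT 3, WT 6, AMKO 3 and AMKO 6. Acvr1 also missed the threshold against WT 1 to 3, and Bmpr2 with total-count scaling. Lack of overlap, as for Acvr1, was shown by 3.54% of all genes tested. Tgfbr1, the type I receptor for TGF-beta, fell from 66.8 ± 9.65 to 48.9 ± 5.51 CPM (-0.45, SE 0.10, adjusted p = 0.0201), but missed the threshold without AMKO 2 (0.0514) or AMKO 3 (0.0532). Bmpr1a, a type I BMP receptor, fell by 0.31 (SE 0.07, adjusted p = 0.0219) and missed it without WT 4, AMKO 2 or AMKO 3, with adjusted p up to 0.0580. Of the receptor SMADs and Smad4, 1 of 5 fell, Smad5 of the BMP branch (-0.33, SE 0.08, adjusted p = 0.0303, lost in 5 of 12 fits without 1 library), and the median was -0.12. With 5 genes, 1 call is too few to set apart from the 5.78% of all genes called.

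Of 16 genes that store or activate latent TGF-beta, 2 fell, 11 were fitted below 0, and the median was -0.13. With 16 genes, 2 calls are too few to set apart from the 5.78% of all genes called. The 2 that fell encode integrin subunits that together form the latent TGF-beta activator alpha v beta 6. Itgb6 fell from 35.1 ± 8.66 to 21.7 ± 3.88 CPM (-0.69, SE 0.16, adjusted p = 0.0253). It missed the threshold when WT 2, WT 4 or AMKO 2 was left out (adjusted p up to 0.0636). Itgav was at 107 ± 12.1 CPM and 83.6 ± 9.75 CPM (-0.35, SE 0.09, adjusted p = 0.0424), and missed it in 9 of 12 fits. Itgb6 is an epithelial gene, and the duct markers, of which Epcam (-0.50, adjusted p = 0.00851), Spp1 (-0.62, 0.0108) and Muc1 (-0.53, 0.0195) passed, had a median of -0.44. Their part in the Itgb6 difference was not tested.

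Among 13 tested extracellular antagonists other than Fst and Fstl3, Vasn, which encodes a TGF-beta binding membrane protein, fell (-0.40, SE 0.11, adjusted p = 0.0440). Nbl1, which encodes a secreted BMP antagonist, rose (0.36, SE 0.10, adjusted p = 0.0436). Each call was lost in 10 of 12 fits without 1 library. In this list 11 genes were fitted below 0 and the median was -0.31. Calls this few among 13 genes cannot be set apart from the 5.78% of all genes called. Of 3 other tested ligands of the activin and TGF-beta class, Gdf9, known from the oocyte, rose from 1.86 ± 0.345 to 3.34 ± 0.681 CPM (0.84, SE 0.20, adjusted p = 0.0257, lost in 5 of 12), and the list's median was -0.05. With 3 genes, 1 call is also too few to set apart from that share. Of 8 tested BMP and GDF ligands edgeR called 0, with 0 at an unadjusted p under 0.05, 0 by DESeq2, 0 by voom and a median of 0.13. The most abundant of them were Bmp1 (-0.12, SE 0.13, adjusted p = 0.628) and Bmp3 (0.35, SE 0.21, adjusted p = 0.340). Of 5 tested BMP target genes edgeR also called 0, with 2 at an unadjusted p under 0.05 and 1 each by DESeq2 and voom, and a median of -0.10. Id2 (-0.63, SE 0.18, adjusted p = 0.0602) and Id3 (-0.01, SE 0.24, adjusted p = 0.983), inhibitors of helix-loop-helix factors, were the most abundant. The sign of Id3 was not stable across alternatives.

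**Figure D5:**
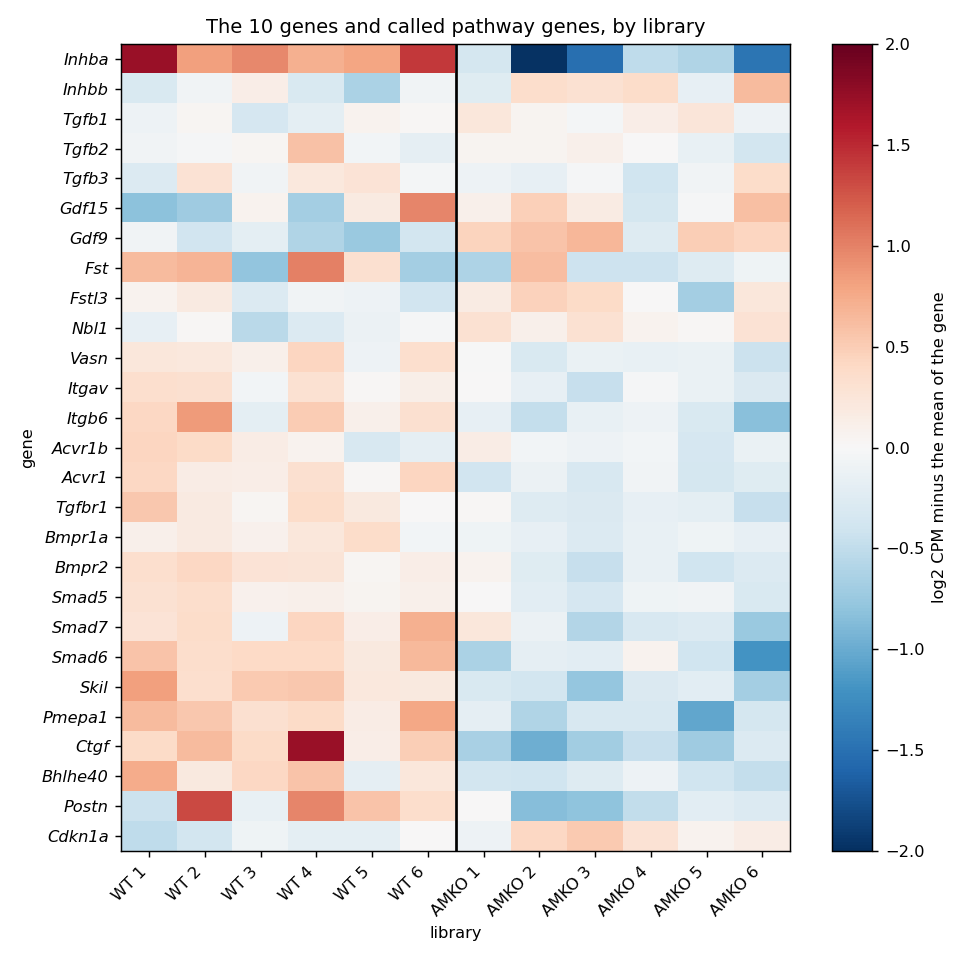
Log2 CPM of the 10 genes and 17 called pathway genes (rows) in each library (columns), minus the mean of the gene over 12 libraries; red is above and blue below that mean. Inhba, Skil, Pmepa1 and Ctgf are red across the wild type libraries and blue across the AMKO libraries, while Gdf9, Nbl1 and Cdkn1a show the other direction in most libraries.

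Markers of other cells that pancreas can hold were read beside these genes. Neutrophil markers had a median of -0.48 over 9 tested, with 0 called by edgeR (1 at an unadjusted p under 0.05, 0 by DESeq2 and 0 by voom) and a summed level of 301 to 1224 CPM in wild type and 254 to 824 CPM in AMKO. Macrophage markers had a median of 0.33 over 14, and 1 rose, Mrc1 (0.81, adjusted p = 0.0211). Endothelial markers had a median of -0.14 over 8, and 1 fell, Kdr (-0.83, adjusted p = 0.00752). Over all genes tested edgeR called 5.78%, and 1 call in lists of this size is too few to set apart from that share. Acinar markers had a median of 0.09 over 11, and the transcription factor genes Bhlha15 (0.86, adjusted p = 0.00320) and Ptf1a (1.21, adjusted p = 0.0145) rose, with Prss2 listed at 0. Medians were 0.34 for dendritic cells, 1.46 for B and plasma cells (Ighm at 0), 0.49 for the only tested T cell gene (Trac at 0), 0.49 for islets, 0.29 for mesothelium and 0.997 for liver transcripts. The liver median followed the Alb split and was 0.09 against WT 4 to 6. Single libraries stood apart in the lymphoid lists. B and plasma cell markers summed to 224 CPM in AMKO 1 and 85.5 CPM in AMKO 5, to 2.29 to 6.28 CPM in the other 4 AMKO libraries and to 0.978 to 47.6 CPM in wild type. The AMKO median of this sum, 4.50 CPM, was below the wild type median of 32.4 CPM, whereas the fitted changes were positive. AMKO 1 and AMKO 5 were also the highest for dendritic cell markers (292 and 150 CPM, others up to 103 CPM) and T cell markers (17.2 and 7.11 CPM, others up to 3.08 CPM). EdgeR called 0 genes in the 6 lists from dendritic cells to liver, with 0 at an unadjusted p under 0.05 and 0 by DESeq2, and voom called 3 liver transcripts.

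The genes most like Inhba across libraries were found from deviations from the genotype means, so that the difference between genotypes played no part. Over 12 libraries and 11353 genes, Pearson's r was highest for Sin3a (0.898), a co-repressor scaffold, and Eps15l1 (0.895), an endocytic adaptor. Ttc26 (0.864), a ciliary transport gene, Cdc37l1 (0.859), a co-chaperone gene, and Chst15 (0.852), a chondroitin sulphate sulfotransferase gene, followed. Spearman's rho was 0.888, 0.881, 0.818, 0.818 and 0.909. As the highest of 11353 values they carry no p, and the AMKO deviations of Inhba rest on few counts. Within the family, r to Inhba ran from -0.554 for Tgfb3 to 0.453 for Tgfb1. Of the 5 genes, Ttc26 was also called (-0.77, SE 0.16, adjusted p = 0.0143).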

How the data were processed

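RNA from 12 pancreas samples was sequenced. The authors deposited 1 table of raw read counts for 46095 genes. Reads were aligned with HISAT2 2.0.4 to mm10, per the submitters' processing notes. The counter, its annotation, its use of strand and its treatment of reads with several matches were not given in the sources used here. Columns were matched to samples by title. No label ties a sample to a mouse, so p-values measure the spread between samples, which may be technical in part. Both sexes were found in each genotype, so the libraries of a genotype do not all come from the same mouse. The 30 within-genotype pairs of libraries differed well beyond counting noise (9.15 to 66.6 chi-square units per degree of freedom).

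AMKO was compared with wild type over all 12 libraries by edgeR's quasi-likelihood test (version 4.0.16, under R 4.3.3). Counts were filtered by filterByExpr and scaled by TMM, and genotype was the sole factor. Benjamini-Hochberg adjustment covered all 13743 genes tested, of which 794 were called at adjusted p under 0.05 (331 higher and 463 lower in AMKO). Levels are TMM-scaled counts relative to library size (CPM). Log2 CPM used a prior count of 2. On simulated counts of 13539 genes, the test recovered 74.7% of 99 planted 2-fold changes and 94.8% of 96 planted 4-fold changes, with 6 false calls among 171. These counts were drawn independently for each library, and changes were planted only in genes above a minimum level. No sex, Alb or cell type structure was simulated, so the figures may not hold for the deposited libraries. Alternatives used DESeq2 1.42.0, limma 3.58.1, other scalings, filters, terms and library sets. Shares within a library were compared by exact permutation tests in R.

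Positions and exon lengths are from GENCODE M21 (GRCm38), matched by symbol for 95.0% of tested genes. Promoter windows are from RefSeq on GRCm38.p6. BLAST 2.17.0 was used to look for near-identical transcripts (95% identity, 300 bp). Among the family and the called pathway and marker genes it found only genes that overlap on the other strand: Prss57 for Fstl3, Gm15270 for Ctgf, Gm13684 for Itgav and Ptf1aos for Ptf1a. Counts of these genes are uncertain to that extent. Exons of other named genes also overlap a neighbour, among them Tgfb3 (12.4% of its exon length, other strand), Spp1 (18.8%, same strand) and Vasn (5.32%, same strand).

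The members and the lists were chosen with earlier results of these data known. The text names all 10 members, Axl, Mertk, Xist, Ddx3y, Alb, up to 4 called genes per direction from each pathway list or else the 2 most abundant, up to 3 called genes per marker list, and the 5 genes with the highest r to Inhba at a mean log2 CPM of at least 1. Prss57, Gm15270, Gm13684, Ptf1aos, Ccdc97 and Hnrnpul1 are named for their position only, and Col1a1, Col1a2 and Col3a1 because 2 lists share them. Of the called pathway genes, 1 is counted but not reported here.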

Additional observations from a re-analysis of the deposited data

Results flagged for a closer look

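Among the 20 groups of 6 values searched (10 genes in each genotype), 2 had a library far from the others, and chance gives about 1 in 20. Tgfb2 in WT 4 was at 11.7 CPM, with the next wild type library at 7.99 CPM, a gap of 0.763 of the group's range. Fst in AMKO 2 was at 4.13 CPM, with the next AMKO library at 2.49 CPM, a gap of 0.667 of the range. The cause of either value was not tested.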

How the results depend on the processing

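Of all genes, 456 were called with total-count scaling, 1302 by DESeq2, 1664 by voom with quality weights, 1527 with the leukocyte score as a term, 167 against WT 4 to 6, 231 against WT 1 to 3, and 98 without WT 3, WT 6, AMKO 3 and AMKO 6, beside 794. Leaving out 1 library gave 411 to 1140. Of the 9 family genes other than Inhba, DESeq2 called 1, voom 2 and the leukocyte score fit 2, and 0 to 1 were called without 1 library. Of the pathway genes, 7 were called with total-count scaling, 3 against WT 4 to 6, 6 against WT 1 to 3 and 2 without the 4 libraries named above, and 6 to 19 without 1 library. Fits against part of the wild type group or without libraries used fewer samples. The cause of the other shifts was not tested.

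Signs changed for 4 genes that did not pass the test. Tgfb2 was at -0.16 to 0.013 without 1 library, the latter without WT 4, Gdf15 at -0.11 and Acvr1b at 0.068 against WT 4 to 6. Id3 was at 0.00085 with RLE scaling, 0.23 against WT 1 to 3, 0.012 with sex as a term, and -0.14 to 0.17 without 1 library.

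Replicate numbers are shared between the genotypes, but no label says whether they pair the samples or mark a batch. Same-numbered libraries had correlations of deviations from -0.160 to 0.346, and 3 of 12 correlated best with their own number. Summed neutrophil markers were lowest in WT 3 (328 CPM) and WT 6 (301 CPM), and in AMKO 3 (261 CPM) and AMKO 6 (254 CPM). What the numbers stand for was not tested further. With the replicate number as a block, 910 of all genes, 0 of the 9 family genes and 14 pathway genes were called, and 2 neutrophil markers. Inhba in AMKO rests on 8 to 37 counts per library, so counting error adds to its spread there.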

Other observations

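Sex was not among the labels, and the comparison by sex was chosen after the values were seen. Fst was at 3.36 to 5.46 CPM in 3 female wild type libraries and 1.67 to 2.49 CPM in 3 female AMKO libraries, without overlap, as 19.5% of all genes tested between these groups. In males the ranges were 1.47 to 4.19 CPM and 1.95 to 4.13 CPM, which overlapped. The differences in mean log2 CPM of Fst were -1.04 in females and 0.26 in males. The genotype-by-sex term did not pass (edgeR quasi-likelihood test, adjusted p = 0.999), and it called 0 of 13743 genes, with 446 at an unadjusted p under 0.05. No other tool was run on this term. Tgfb3 was at 12.5 to 13.1 CPM in the female and 8.88 to 10.4 CPM in the male wild type libraries, without overlap, as 14.1% of all genes tested between these groups. In AMKO it was at 9.99 to 13.8 CPM in females and 8.15 to 10.3 CPM in males, which overlapped. This difference between the sexes was not tested.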
